A study of Mus musculus with 9 samples.

Results

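The 7 genes described here make long noncoding RNAs that work in the nucleus or carry small nucleolar RNAs (snoRNAs) in their introns. They are Malat1, Neat1, Miat, Snhg11, Gas5, Snhg1 and Snhg12, taken by name and matched by symbol to the Ensembl release 96 identifiers of the files, and they are 7 of the 55450 genes counted. All 7 averaged 5 counts or more per library and so were among the 19371 genes tested.

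RNA was sequenced from Rathke’s pouch, the epithelial fold that gives rise to the anterior and intermediate lobes of the pituitary gland, of 7 embryos at e13.5 that all carried Sox2 Egfp/+, an Egfp allele at the Sox2 gene. It was also sequenced from the pituitary glands of 2 adults at postnatal week 8, without their posterior lobes, for which no Sox2 genotype is given. Both stages have the strain 129Sv/c57BL6J. Males and females were used at each stage, but the sex of single samples is not in the labels. The comparison of stages thus also compares animals known to carry the Egfp allele with animals of unstated genotype, and these cannot be told apart. The libraries were directional and made from poly(A)-selected RNA, and values are read pairs counted on genes on the strand of the transcript. The embryo libraries held 16738863 to 28537311 counted pairs, and adults 1 and 2 held 36421545 and 31191117. Levels are in CPM, the counts of a gene per 1e6 counts of the library after TMM normalisation. In that unit 3 counts came to 0.220 CPM or less in any embryo and to 0.0843 CPM or less in either adult, a limit for counting error only, since PCR copies were not told apart.

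Malat1 is an abundant RNA of nuclear speckles, bodies rich in splicing factors, and Neat1 is the scaffold around which paraspeckles form. Miat, also called Gomafu, gathers in its own nuclear spots, mainly in neurons. Gas5, Snhg1 and Snhg12 are spliced RNAs whose introns are cut into snoRNAs that guide the modification of ribosomal RNA, and their spliced exons are commonly degraded by nonsense-mediated decay during translation.

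The labelled tissues were checked against marker genes. Of 8 genes of the early pouch, 5 passed the test higher in the embryo and 1 (Sox2) passed higher in the adult. Of all tested genes, 24.0% and 27.4% passed higher in the embryo and the adult. Without embryos 1 and 4, 56.8% of tested genes passed, 29.9% higher in the adult. Of the 8 pouch genes, 6 then passed higher in the embryo and 0 higher in the adult, so Sox2 no longer passed. Pitx1, the most abundant of them in the embryo, averaged 395 ± 138 CPM there (SD, n = 7) and 121 ± 17.8 CPM in the adult (SD, n = 2). The 8 hormone and lineage genes of the mature gland summed to 872 to 1920 CPM in single embryos and to 152537 and 160062 CPM in the adults. Of these genes, Lhb was at 0 in embryos 1, 4 and 6 and Fshb in embryo 1. For the posterior lobe and infundibulum, Avp was at 0 in all 7 embryos and had 2.59 ± 1.19 CPM (SD, n = 2) in the adults, Oxt was at 0 in 6 embryos and Scn7a was at 0 in embryo 1. Rax, with the highest mean of that list in the embryo (50.8 ± 20.8 CPM, SD, n = 7), had an adult mean of 1.79 ± 0.445 CPM (SD, n = 2). In the adults Scn7a (30.8 ± 13.1 CPM) and Col25a1 (30.6 ± 3.98 CPM) had the highest means. The sums of the 7 infundibular and posterior lobe genes were 80.2 to 216 CPM in the embryos and 60.4 and 88.9 CPM in the adults.

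Embryos 1 and 4 stood apart from the other embryos. Of all their read pairs, 59.7% and 62.8% fell on a gene, whereas the other 5 embryos had 73.9% to 80.0% and the adults 84.0% and 83.7%. Pairs that aligned in several places made up 21.7% and 26.1% in embryos 1 and 4. The other embryos had 14.1% to 19.7% of them, and adults 1 and 2 had 7.16% and 7.52%. The same embryos held the most erythroid RNA. Summed over 8 erythroid genes, the level reached 178374 CPM in embryo 1 and 223596 CPM in embryo 4. The other embryos had 6372 to 19819 CPM and the adults 763 and 1976 CPM. All 8 genes had counts in all 9 libraries, but Hba-x had only 1 in each adult. Their most abundant gene was Hbb-y, an embryonic beta-like globin, with 100745 and 128757 CPM in embryos 1 and 4. Results of the 7 genes, and counts of the gene lists, are therefore also given without embryos 1 and 4. In bulk tissue, fewer cells of a type and less RNA per cell cannot be told apart.

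Between the stages, the 7 genes went in different directions. Gas5, Snhg1 and Snhg12, which are 3 of the 4 snoRNA hosts among them, rose in the embryo, Neat1 and Miat were higher in the adult, and Malat1 and the other host, Snhg11, did not pass. The test was edgeR’s quasi-likelihood test across all 19371 genes, log2 fold changes are embryo over adult, and p-values are adjusted over all genes tested. Thus 5 of the 7 genes passed at an adjusted p below 0.05, which 51.4% of all tested genes did, 24.0% higher in the embryo and 27.4% higher in the adult. Neat1, Miat and Snhg1 were also called, that is, they passed with a fold change above 4, which 25.8% of all tested genes did, 11.3% higher in the embryo and 14.6% higher in the adult. The groups did not overlap for 5 of the 7 genes (Neat1, Miat, Snhg11, Gas5 and Snhg1), against 59.1% of tested genes. All embryos were above both adults for Gas5 and Snhg1, as for 26.2% of tested genes, and below both for Neat1, Miat and Snhg11, as for 32.9%. The 7 genes were not chosen at random, and they are too few to weigh against these shares. When each library was corrected for the length and GC content of transcripts, 3 of the 7 passed, 2 higher in the embryo and 1 higher in the adult. Under that correction 24.8% and 23.7% of all tested genes did so. It is fitted without regard to stage, so it also removes any stage difference that follows length or GC content. A technical effect and such a difference cannot be told apart by it. Without embryos 1 and 4 all 7 genes passed, 4 of them higher in the adult, against 56.8% of tested genes, 29.9% higher in the adult. Their log2 fold changes were then −2.04 for Malat1, −5.18 for Neat1, −1.83 for Miat, −1.17 for Snhg11, 1.14 for Gas5, 1.85 for Snhg1 and 0.85 for Snhg12, and Miat (3.56-fold) and Snhg1 (3.61-fold) were no longer above 4-fold.

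**Figure D1:**
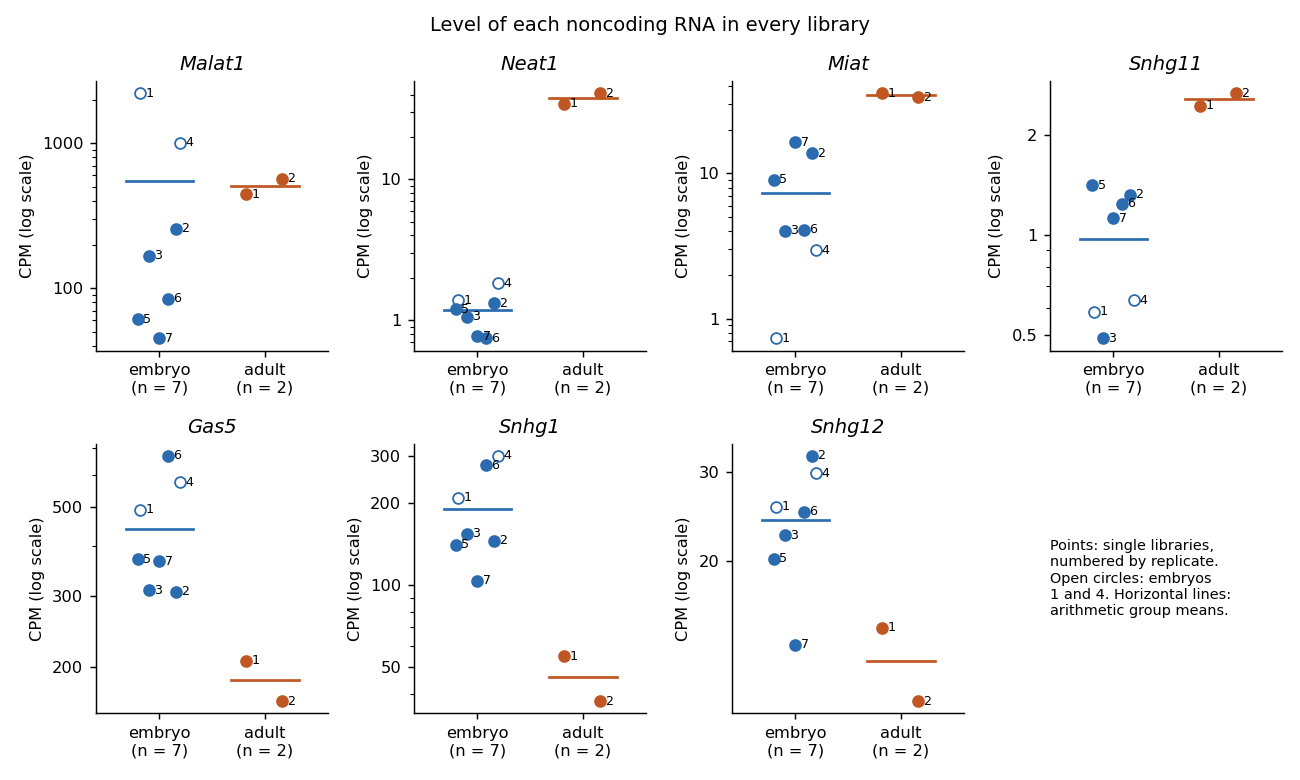
Level of each of the 7 genes in every library, as CPM on a log axis, with a point for each embryo (n = 7) and adult (n = 2), replicate numbers beside the points, open circles for embryos 1 and 4, and horizontal lines at the arithmetic group means. Malat1 ran from 45.0 to 2216 CPM among embryos and spanned both adults, whereas all embryos lay below both adults for Neat1, Miat and Snhg11, and above both for Gas5 and Snhg1.

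Malat1 (ENSMUSG00000092341.3, GRCm38 chr19:5795690-5802672, reverse strand, 4 annotated transcripts whose exons join into 1 block of 6983 bases) varied more among embryos than any of the other 6 genes. It had 2216 CPM in embryo 1, 257 in embryo 2, 167 in embryo 3, 1010 in embryo 4, 61.3 in embryo 5, 84.3 in embryo 6 and 45.0 in embryo 7, and 447 and 570 CPM in adults 1 and 2. Embryos 1 and 4 were above both adults and the other 5 embryos were below both. The highest embryo had 49.2 times the level of the lowest. The means were 549 ± 809 CPM (SD, n = 7) and 508 ± 86.7 CPM (SD, n = 2), and the log2 fold change, 0.11 with a standard error of 1.13 (adjusted p = 0.944), was far smaller than the spread between embryos. Its sign changed with scaling by library size alone (−0.34) or by all uniquely mapped pairs (−0.37), and without embryo 1 (−0.87), embryo 4 (−0.07) or adult 1 (−0.07). After the length and GC correction the log2 fold change moved the other way, to 1.76 (adjusted p = 0.297). Without both embryos 1 and 4, the other 5 embryos had 123 ± 88.4 CPM (SD, n = 5), all below both adults, and Malat1 was 4.10-fold higher in the adult (log2 fold change −2.04, standard error 0.50, adjusted p = 0.00414). The erythroid sums and the shares of pairs that aligned in several places were also highest in embryos 1 and 4. Their part in the Malat1 level was not tested.

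The files also let the 5′ part of Malat1 be read apart from the rest. A short unconfirmed gene model on the opposite strand, Gm37376 (GRCm38 chr19:5801941-5802393, forward strand), lies wholly inside the Malat1 exon, and its count on the other strand is the number of Malat1-strand pairs that touch these 453 bases, positions 280 to 732 of the transcript or 6.49% of its length. On its own strand Gm37376 had 0 to 8 counts a library. A pair is counted if any base touches the window, so the share expected from length alone is larger than 6.49% and was not computed. The window also holds a 14-letter sequence that recurs in other transcripts. When the longest transcripts of all genes were cut into 208784 windows of this length, 1734 (0.831%) held it on either strand. It was picked as the one that the most windows held. Whether pairs from other transcripts were placed in the Malat1 window was not tested.

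The share of Malat1 pairs that touched the window was higher in every embryo than in either adult. It was 56.4% in embryo 1, 51.9% in embryo 2, 56.3% in embryo 3, 52.6% in embryo 4, 45.4% in embryo 5, 41.5% in embryo 6 and 24.7% in embryo 7, and 13.1% and 14.7% in adults 1 and 2. All 7 embryos were above both adults, and embryo 7, with the lowest Malat1 level, was the nearest to them. The 95% Wilson intervals, 22.5% to 27.0% in embryo 7 and 14.2% to 15.1% in adult 2, did not overlap. They cover counting error only, not the spread between animals. The means were 47.0 ± 11.3% (SD, n = 7) and 13.9 ± 1.07% (SD, n = 2). The exact two-sided permutation p was 0.0556, the smallest that 7 against 2 libraries allow, so this test could not fall below 0.05. Embryos 1 and 4, which had the most Malat1, did not differ in this share from embryos 2 and 3, which had 257 and 167 CPM, by more than the spread among embryos. With the window left out, Malat1 had 965 CPM in embryo 1 and 479 in embryo 4, the other embryos had 33.4 to 124, and adults 1 and 2 had 388 and 486, so that embryo 4 then lay between the adults. In the unstranded counts, where pairs in this window are ambiguous and therefore not counted, the log2 fold change was −0.78 (adjusted p = 0.532).

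**Figure D2:**
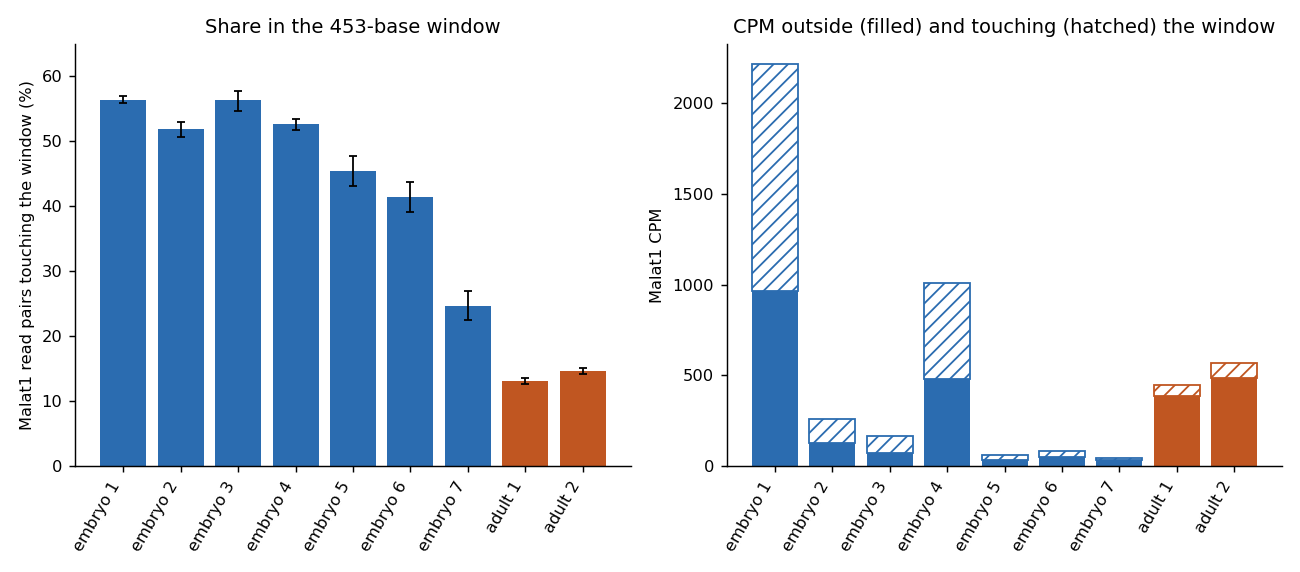
Left, percentage of Malat1 read pairs touching the 453-base window in each library, with 95% Wilson intervals as bars. Right, Malat1 CPM in each library, divided into pairs outside the window (filled) and touching it (hatched). The share was 24.7% to 56.4% in the 7 embryos (blue) and 13.1% and 14.7% in the 2 adults (orange).

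Neat1 (ENSMUSG00000092274.3, GRCm38 chr19:5824708-5845478, reverse strand), whose annotated end lies 22035 bases from Malat1, differed most between the stages. Its level was 1.39 CPM in embryo 1, 1.32 in embryo 2, 1.06 in embryo 3, 1.83 in embryo 4, 1.20 in embryo 5, 0.742 in embryo 6 and 0.770 in embryo 7, from 15 to 39 read pairs a library. Adults 1 and 2 had 34.6 and 40.9 CPM, from 1429 and 1455 pairs. All embryos were low, within 2.47-fold of each other, and all lay below both adults. The means of 1.19 ± 0.380 CPM (SD, n = 7) and 37.8 ± 4.43 CPM (SD, n = 2) put its log2 fold change at −5.00 (standard error 0.33; adjusted p = 1.4e-07), 32.1-fold higher in the adult. With 20771 annotated bases Neat1 is much longer than most transcripts, and when each library was corrected for the length and GC content of transcripts the log2 fold change was −2.64 (adjusted p = 2.0e-05), still in the same direction. Per kilobase of annotated exon, the embryo mean of Neat1 was 0.0571 ± 0.0183 CPM (SD, n = 7), above 5.05% of tested genes, and the adult mean 1.82 ± 0.213 CPM (SD, n = 2), above 40.7%. Both this level and the length correction use all 20771 bases, whereas the 4 annotated Neat1 transcripts are not told apart. Poly(A) selection may miss transcripts without a tail, so the level per kilobase and its rank depend on which transcripts were captured. Malat1 on the same scale had 78.6 ± 116 and 72.8 ± 12.4 CPM per kilobase and ranked 726 and 374 of 19371.

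Miat (ENSMUSG00000097767.8, GRCm38 chr5:112213228-112229395, reverse strand) was also higher in the adult. It had 0.732 CPM in embryo 1, 13.8 in embryo 2, 4.02 in embryo 3, 2.96 in embryo 4, 9.06 in embryo 5, 4.11 in embryo 6 and 16.4 in embryo 7, and 35.6 and 33.4 CPM in adults 1 and 2. All embryos were below both adults, and embryo 1, with 10 read pairs, was the lowest. The embryos spanned 22.4-fold, with a mean of 7.30 ± 5.94 CPM (SD, n = 7) against 34.5 ± 1.53 CPM (SD, n = 2) in the adult. Miat passed (log2 fold change −2.23, with standard error 0.65 and adjusted p = 0.0112) but went to −1.01 and no longer passed after the length and GC correction (adjusted p = 0.221). It was −2.20 without adult 1 (adjusted p = 0.0562) and −4.17 with the noFeature share of each library as a covariate (adjusted p = 9.6e-05), in a range of −4.17 to −1.01 over the 21 alternatives. Without embryo 1 it passed below 4-fold (−1.97, adjusted p = 0.00608). A gene on the opposite strand, Gm26953, overlaps 2260 bases of Miat exons. The share of Miat pairs in that overlap was 16.2% to 26.2% in embryos 2 to 7, 0% of 10 pairs in embryo 1 (95% Wilson upper limit 27.8%), and 26.5% and 23.7% in the adults (exact two-sided permutation p = 0.389). The intervals were narrow in embryo 7 (21.6% to 29.1%) and adult 1 (24.3% to 28.8%), so a difference as large as that of Malat1 was not seen for Miat, apart from embryo 1, where 10 pairs cannot tell.

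Snhg11 (ENSMUSG00000044349.15, GRCm38 chr2:158375638-158386145, forward strand), a host RNA of neurons that the annotation gives the biotype protein coding, was near the limit of the data in the embryo. Its CPM was 0.586 in embryo 1, 1.32 in embryo 2, 0.487 in embryo 3, 0.635 in embryo 4, 1.41 in embryo 5, 1.24 in embryo 6 and 1.12 in embryo 7, from 8 to 39 read pairs, and 2.45 and 2.67 in the adults, from 101 and 95. All embryos were below both adults, and embryos 1, 3 and 4 were the lowest. Its log2 fold change, −1.38 with a standard error of 0.56 (adjusted p = 0.0519), fell just outside the threshold and was −0.14 (adjusted p = 0.836) after the length and GC correction, the ends of its 20 alternatives being −1.91 and −0.14. Embryos 1, 3 and 4 also had 5, 11 and 16 pairs on the opposite strand, whereas the other embryos had 1 to 3 and both adults 0. Unlike the sense counts, these were not scaled or tested.

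Markers of neurons were given alongside, since Miat and Snhg11 are best known from neurons. Of 12 neuronal genes, 7 passed higher in the adult, 5 did not pass and 0 passed higher in the embryo (8 and 1 passed higher in the adult and the embryo without embryos 1 and 4), whereas 27.4% and 24.0% of all tested genes passed higher in the adult and the embryo. The median log2 fold change was −1.53 against −0.04 for all tested genes. After the length and GC correction 23.7% and 24.8% of all tested genes passed higher in the adult and the embryo. Of the neuronal genes 5 and 1 then did so, with a median of −0.56. They summed to 281 CPM in embryo 1, 449 in embryo 2, 433 in embryo 3, 316 in embryo 4, 293 in embryo 5, 449 in embryo 6 and 345 in embryo 7, and to 1023 and 1013 CPM in the adults. All 12 were detected in all libraries. Nefl was the most abundant in the embryo (147 ± 71.7 CPM, SD, n = 7; adult 53.4 ± 14.9 CPM, SD, n = 2) and Map2 in the adult (290 ± 30.5 CPM; embryo 40.5 ± 13.9 CPM). Syt1, a calcium sensor of secretory vesicles that endocrine cells also express, had 8.78 ± 2.88 and 245 ± 2.34 CPM. Snap25 had 6.05 ± 2.76 and 203 ± 11.7 CPM, and Map2, Syt1 and Snap25 had the highest adult means of the 12. The log2 fold change was positive for 3 of the 12, none of which passed with all libraries. The sums therefore do not measure neurons alone. Embryo 1, lowest for Miat, also had the lowest neuronal sum, and embryo 2, second to embryo 7 in Miat, shared the highest with embryo 6, which had little Miat, whereas embryo 7 had 345 CPM. The part of neurons in the levels of Miat and Snhg11 was not tested.

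The starts of the 7 genes and the snoRNA genes inside them were looked at by sequence, and the start feature was not particular to Gas5, Snhg1 and Snhg12. Ribosomal protein messengers and several host RNAs begin with a run of pyrimidines, the 5′ terminal oligopyrimidine motif, which links their translation and stability to growth signals. RefSeq promoters (build GRCm38.p6) were found for 6 of the 7 genes and not for Neat1, and each was searched for an unbroken run of at least 4 C or T letters on the transcript strand that includes the annotated start base. Such a run was found for Gas5 (the second of its 2 start sites), Snhg1, Snhg12 and Miat, and not for Malat1 and Snhg11. Of all 32851 promoters, 4590 (14%) held one. The starts of the 3 hosts are printed from 30 bases before the start base, with the run in capitals (Gas5 GRCm38.p6 chr1:161035136-161035215, Snhg1 chr19:8723457-8723536, Snhg12 chr4:132308648-132308727, all forward strand).
Gas5 start: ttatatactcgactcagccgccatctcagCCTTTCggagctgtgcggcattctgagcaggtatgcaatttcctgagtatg
Snhg1 start: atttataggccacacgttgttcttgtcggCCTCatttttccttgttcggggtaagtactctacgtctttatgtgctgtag
Snhg12 start: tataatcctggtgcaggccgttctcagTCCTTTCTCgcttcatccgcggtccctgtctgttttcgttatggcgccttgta
The runs had 6, 4 and 9 letters. Each begins before the annotated start base, so fewer letters lie from that base on, and for Snhg1 fewer than 4. Of the other snoRNA hosts, 13 had a promoter entry and 4 of these (Snhg7, Snhg8, Snhg17 and Snhg18) had such a run, and a match describes letters only.

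The annotation places 10 snoRNA genes inside Gas5, 8 inside Snhg1, 5 inside Snhg12 and 2 inside Snhg11. By distinct symbol there are 9 in Gas5 and 4 in Snhg12, since Snord80 and Snora16a each have 2 overlapping entries, both counted here. C/D snoRNAs carry a C box near their 5′ end and a D box near their 3′ end, searched here on the snoRNA’s own strand as TGATGA within the first 20 bases and CTGA within the last 15. Both were found in 8 of the 10 in Gas5, 5 of the 8 in Snhg1, 1 of the 5 in Snhg12 and 0 of the 2 in Snhg11, against 20.2% of 1507 annotated snoRNA transcripts. The search is for C/D snoRNAs only, and snoRNAs of other classes were not set apart. These counts therefore do not compare the hosts. An example from each of the 3 hosts is printed with both boxes in capitals, to show the product that the intron carries (Snord47 in Gas5, GRCm38 chr1:161038082-161038158; Gm25855 in Snhg1, chr19:8723993-8724064; Snord99 in Snhg12, chr4:132310691-132310764; all forward strand).
Snord47: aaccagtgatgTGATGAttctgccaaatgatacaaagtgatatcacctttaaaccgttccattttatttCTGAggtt
Gm25855: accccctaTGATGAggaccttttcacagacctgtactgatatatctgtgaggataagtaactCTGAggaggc
Snord99: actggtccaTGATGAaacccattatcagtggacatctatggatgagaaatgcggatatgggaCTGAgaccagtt
All the snoRNA genes of Gas5, Snhg1 and Snhg12 lie wholly within bases that some host transcript retains as exon, so pairs there are ambiguous between snoRNA and host and are not counted. They had 0 counts in all 9 libraries, which is a property of the counting and says nothing about the snoRNAs. The values below are those of the host RNAs.

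Gas5 (ENSMUSG00000053332.13, GRCm38 chr1:161034422-161038539, forward strand) was higher in the embryo. It had 492 CPM in embryo 1, 308 in embryo 2, 311 in embryo 3, 576 in embryo 4, 371 in embryo 5, 669 in embryo 6 and 367 in embryo 7, and 208 and 165 CPM in adults 1 and 2. All embryos were above both adults, with embryo 6 the highest and embryos 2 and 3 the lowest. The means of 442 ± 140 CPM (SD, n = 7) and 186 ± 30.5 CPM (SD, n = 2) differed 2.38-fold, so Gas5 passed (log2 fold change 1.25, standard error 0.36, adjusted p = 0.00973) but was not called. Without adult 1 or adult 2 it was 1.41 (adjusted p = 0.0523) or 1.08 (adjusted p = 0.122), within 0.98 to 1.51 over the 21 alternatives. Per kilobase Gas5 had 118 ± 37.3 CPM (SD, n = 7) in the embryo, the highest of the 7 genes and above 97.4% of tested genes, although Malat1, at 78.6 ± 116, did not differ from it beyond the spread between embryos.

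Snhg1 (ENSMUSG00000108414.1, GRCm38 chr19:8723475-8726443, forward strand) rose more. It had 210 CPM in embryo 1, 146 in embryo 2, 155 in embryo 3, 299 in embryo 4, 141 in embryo 5, 276 in embryo 6 and 104 in embryo 7, and 54.9 and 37.5 CPM in adults 1 and 2. All embryos were above both adults, and embryos 4 and 6 were the highest, as they were for Gas5. It was called, being 4.12-fold higher in the embryo (log2 fold change 2.04, standard error 0.43, adjusted p = 0.00128), from means of 190 ± 73.8 CPM (SD, n = 7) and 46.2 ± 12.3 CPM (SD, n = 2). It was 1.85 without embryos 1 and 4, a 3.61-fold difference that passed (adjusted p = 0.00128) but was not called, and 2.48 after the length and GC correction. The difference was also below 4-fold, though it passed, with library size alone (1.75), all uniquely mapped pairs (1.76) or at least 10 counts per sample (1.98), and without embryo 4 (1.95), embryo 6 (1.97) or adult 2 (1.78).

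Snhg12 (ENSMUSG00000086290.9, GRCm38 chr4:132308623-132311024, forward strand) had 25.6 CPM in embryo 1, 32.2 in embryo 2, 22.5 in embryo 3, 29.8 in embryo 4, 20.2 in embryo 5, 25.0 in embryo 6 and 13.7 in embryo 7, and 14.8 and 10.6 CPM in the adults. The groups overlapped, since embryo 7 lay between the adults and the other 6 embryos lay above both. It passed with a 1.90-fold difference (log2 fold change 0.92, standard error 0.34, adjusted p = 0.0361), and its 21 alternatives ran from 0.29 to 1.24. It did not pass when the library size alone was used for scaling (0.67, adjusted p = 0.133), after the length and GC correction (0.29, adjusted p = 0.434), without embryo 2 (0.84, adjusted p = 0.0551), or without adult 1 (1.16, adjusted p = 0.0869) or adult 2 (0.69, adjusted p = 0.289).

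Other snoRNA host genes were listed to set these 3 beside their kind. Of 16 listed, 14 were found in the annotation and tested. Of these, 7 passed higher in the embryo, 2 higher in the adult (6 and 2 without embryos 1 and 4) and 5 did not pass, against 24.0% and 27.4% of all tested genes, and 2 were called, Snhg6 and Epb41l4aos. The median log2 fold change was 0.90, against −0.04 for all tested genes, but it was 0.00 after the length and GC correction, with 2 genes passing higher in the embryo and 4 higher in the adult, against 24.8% and 23.7% of all tested genes under that correction. In the uncorrected fit 5 hosts passed in place of 9 without adult 1, and 2 without adult 2. Snhg6 averaged 48.0 ± 17.1 CPM in embryos (SD, n = 7) and 8.09 ± 2.85 CPM in adults (SD, n = 2), with a log2 fold change of 2.57 (adjusted p = 3.0e-04). Epb41l4aos had 15.3 ± 4.75 and 3.26 ± 0.561 CPM (2.23, adjusted p = 6.7e-04), and Zfas1 129 ± 49.9 and 36.4 ± 14 CPM (1.82, adjusted p = 0.00315).

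The other hosts that passed higher in the embryo had smaller differences. Snhg16 had a log2 fold change of 1.26 (adjusted p = 0.0327), Snhg3 of 1.25 (0.0416), Snhg18 of 1.13 (0.0109) and Snhg8 of 1.08 (0.0258). Snhg14, the long host of the imprinted Prader–Willi region, with 206 of its 208 snoRNA genes outside annotated exons, was higher in the adult (−1.90, adjusted p = 0.00529), with means of 4.44 ± 2.74 CPM (SD, n = 7) and 16.5 ± 2.00 CPM (SD, n = 2). So was Snhg20 (−1.03, adjusted p = 0.0466). The hosts that did not pass were Snhg9 (0.73), Snhg15 (0.56), Snhg5 (0.49), Snhg17 (0.09) and Snhg10 (0.03). As for Gas5 and Snhg1, but not Snhg12, the levels of Zfas1, Snhg8, Snhg6 and Epb41l4aos were highest in embryos 1, 4 and 6, and so were those of Snhg14, which was higher in the adult. In these embryos Zfas1 had 159, 194 and 186 CPM, and 67.2 to 102 CPM in the others.

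**Figure D3:**
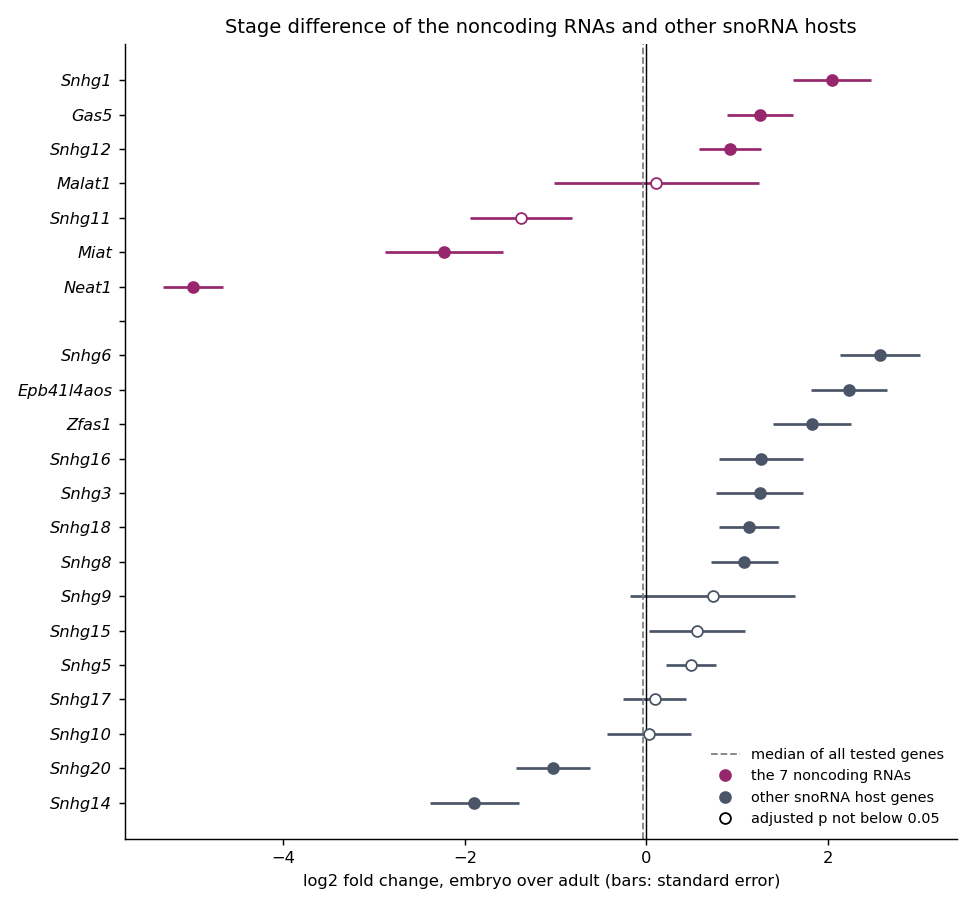
Log2 fold change of embryo over adult (horizontal axis, bars are standard errors) for the 7 genes (purple) and 14 other snoRNA hosts (grey), with open circles for genes with an adjusted p not below 0.05 and a dashed line at the median of all tested genes (−0.04). Values ran from −5.00 for Neat1 to 2.57 for Snhg6.

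Of 19 genes for snoRNA-binding proteins and their assembly factors, 10 passed higher in the embryo and 2 higher in the adult (11 and 2 without embryos 1 and 4) and 7 did not pass, against 24.0% and 27.4% of all tested genes, with a median log2 fold change of 0.82 that was 0.79 after the length and GC correction. The number that passed, 12, was 8 to 13 over the alternatives. The 4 called were Nhp2, a core H/ACA protein (114 ± 30.1 CPM, SD, n = 7, against 11.5 ± 2.97 CPM, SD, n = 2; log2 fold change 3.30, adjusted p = 1.6e-05), Pih1d1 (2.37, adjusted p = 2.7e-04), Znhit3 (2.36, adjusted p = 5.6e-04) and Nop10 (2.18, adjusted p = 5.0e-04). The abundant nucleolar protein gene Npm1 did not pass, with 505 ± 230 CPM (SD, n = 7) and 387 ± 31.5 CPM (SD, n = 2). Of 16 genes of nonsense-mediated decay, the process that degrades spliced host RNAs, 4 passed in each direction (5 in each without embryos 1 and 4), against 24.0% and 27.4% of all tested genes, and the median was −0.08. After the length and GC correction 5 passed higher in the embryo and 2 higher in the adult, and the median was 0.14. Of all tested genes, 24.8% and 23.7% did so under that correction. In the uncorrected fit 5 genes passed in place of 8 when either adult was left out. Among them Smg1, its kinase, was higher in the adult (log2 fold change −3.06, adjusted p = 1.2e-05), as was Nbas (−2.51, adjusted p = 8.6e-04), whereas Magoh (2.44, adjusted p = 2.0e-04) and Eif4a3 (1.52, adjusted p = 0.00349), both of the exon junction complex, were higher in the embryo. The Smg1 means were 11.4 ± 4.49 CPM for embryos (SD, n = 7) and 95.1 ± 9.60 CPM for adults (SD, n = 2).

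Genes for proteins of paraspeckles and speckles passed in both directions, in shares not far from the 24.0% and 27.4% of all tested genes. Of 19 paraspeckle protein genes, 6 passed higher in the embryo and 4 higher in the adult (7 and 3 without embryos 1 and 4), and the median log2 fold change was 0.17, but −0.01 with scaling by library size alone. After the length and GC correction the median was 1.01, with 11 passing higher in the embryo and 4 higher in the adult, against 24.8% and 23.7% of all tested genes under that correction. In the uncorrected fit 6 genes passed in place of 10 without adult 1, and 3 without adult 2. Nono, a core paraspeckle protein, was higher in the embryo (738 ± 195 against 263 ± 20.6 CPM, SD, n = 7 and 2; log2 fold change 1.49, adjusted p = 0.00281), and Hnrnpa1 had 599 ± 134 and 257 ± 39.7 CPM (1.22, adjusted p = 0.00459). Only Zc3h6 was called (−2.51, adjusted p = 5.1e-04). Of 20 nuclear speckle genes, 5 passed higher in the embryo and 7 higher in the adult (5 and 9 without embryos 1 and 4), 0 were called, and the median was −0.14, which became 0.35 after the length and GC correction, with 7 passing higher in the embryo and 2 higher in the adult. Without adult 1 or adult 2, 6 genes passed in the uncorrected fit in place of 12. The most abundant per kilobase were the splicing factors Srsf7 (310 ± 60.1 and 122 ± 13.3 CPM, log2 fold change 1.34, adjusted p = 0.0017) and Srsf2 (0.70, adjusted p = 0.0388).

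Among 24 other long noncoding RNAs that were tested, 4 passed higher in the embryo and 9 higher in the adult (4 and 10 without embryos 1 and 4), against 24.0% and 27.4% of all tested genes, with a median log2 fold change of −0.24. This balance turned after the length and GC correction, when 7 passed higher in the embryo and 5 higher in the adult and the median was 0.33. Of all tested genes, 24.8% and 23.7% did so under that correction. Among these RNAs the largest differences were those of H19 (8.71, adjusted p = 7.2e-08), Pantr1 (5.21, adjusted p = 0.0013) and Mir9-3hg (3.89, adjusted p = 0.00413), higher in the embryo, and Mir22hg (−3.22, adjusted p = 2.9e-05), higher in the adult. Pantr1 had 0 and 2 counts in adults 1 and 2, below the limit of 3, so its fold change and its rank are not exact. Rian, a host of many snoRNAs in the Dlk1-Dio3 region, averaged 426 ± 106 CPM in embryos (SD, n = 7) and 1105 ± 121 CPM in adults (SD, n = 2), with a log2 fold change of −1.38 (adjusted p = 0.00123).

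**Figure D4:**
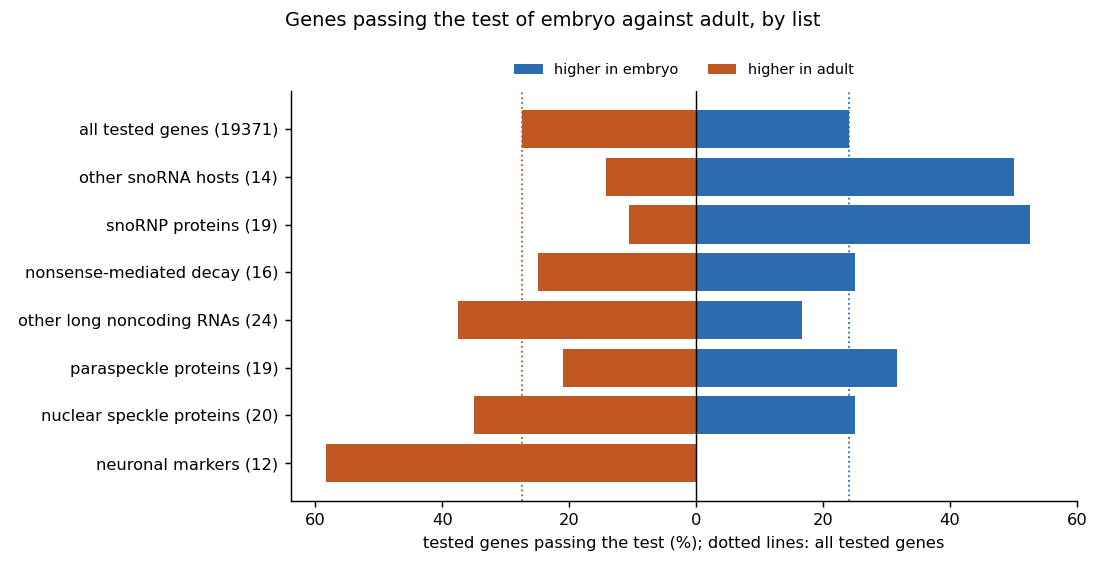
Percentage of tested genes in each of 7 lists, those of tissues and of non-neuronal cell types not being drawn, that passed the test (adjusted p below 0.05) higher in the embryo (blue, to the right) or higher in the adult (orange, to the left), with the number of tested genes in parentheses and dotted lines at the percentages of all 19371 tested genes, 24.0 and 27.4. The snoRNA hosts (7 of 14) and snoRNA-binding proteins (10 of 19) reached furthest to the right of the lists drawn, the hosts with 2 of 14 after the length and GC correction, and neuronal markers (7 of 12) furthest to the left.

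The noFeature share is the percentage of uniquely mapped pairs that fell on no annotated exon of the counted strand, such as pairs in introns or between genes. It was 9.28% in embryo 1, 3.32% in embryo 2, 3.70% in embryo 3, 6.13% in embryo 4, 3.26% in embryo 5, 3.04% in embryo 6 and 3.30% in embryo 7, and 6.95% and 7.22% in adults 1 and 2. Embryo 1 was alone at the top, 3.15 points above embryo 4, which is 50.4% of the range of 6.24 points over the 7 embryos, and embryo 4 was 2.44 points above the next. The embryos thus fell into separate clusters, 5 of them close together, so a correlation of the share with the level of an RNA across embryos would rest on embryos 1 and 4. The values are therefore set side by side, with no correlation.

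The 2 embryos with the highest noFeature share had the most Malat1, 2216 CPM at 9.28% and 1010 CPM at 6.13%, whereas the adults, with shares between these 2, had 447 and 570 CPM. Among the 5 embryos between 3.04% and 3.70%, Malat1 still ran from 45.0 to 257 CPM, a 5.71-fold range. Neat1 was 1.39 and 1.83 CPM in embryos 1 and 4, within reach of the 1.32 CPM of embryo 2, and the adults, at 6.95% and 7.22%, had 34.6 and 40.9 CPM. Miat went the other way, with its lowest levels, 0.732 and 2.96 CPM, in embryos 1 and 4, and 4.02 to 16.4 CPM in the others. Snhg11 had 0.586 and 0.635 CPM in embryos 1 and 4, but 0.487 CPM in embryo 3 at 3.70%. For Gas5, Snhg1 and Snhg12, embryos 1 and 4 lay within the range of the other embryos, except for Snhg1 in embryo 4 (299 CPM against 276 CPM in embryo 6, which had the lowest share). With the share as a covariate in the fit of stage, where embryos 1 and 4 weigh most, Malat1 had a log2 fold change of 1.01 (adjusted p = 0.181), Snhg11 of −1.91 (adjusted p = 0.0175), and Gas5, Snhg1 and Snhg12 of 1.38, 2.25 and 1.03. The erythroid sum, the share of pairs aligned in several places and the noFeature share were all highest in embryos 1 and 4, and among embryos they cannot be told apart.

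**Figure D5:**
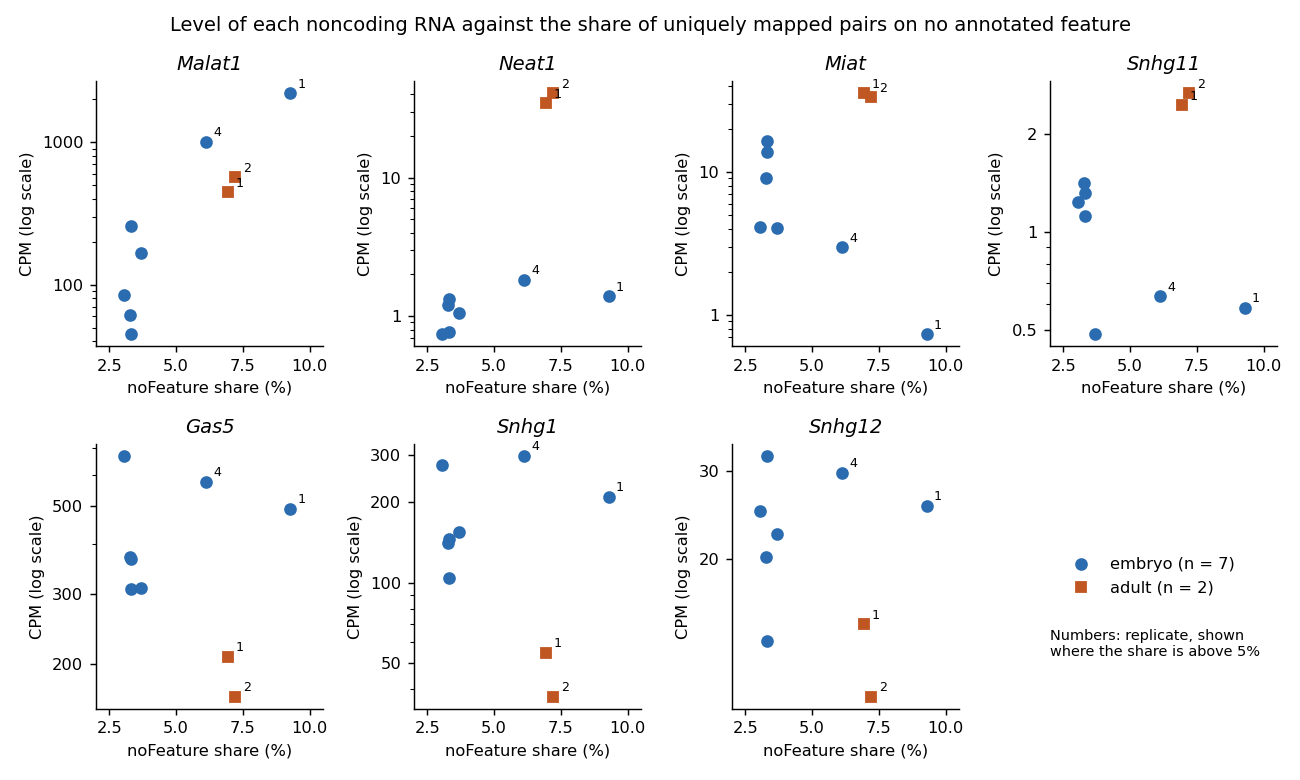
CPM of each of the 7 genes on a log axis against the noFeature share of the library in percent of uniquely mapped pairs, for embryos (blue circles, n = 7) and adults (orange squares, n = 2). Embryos 1 (9.28%) and 4 (6.13%) are separate from the other 5 (3.04% to 3.70%) and are highest for Malat1 and low for Miat.

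Across the 7 embryos, the genes most like each of the 7 in level were found by Pearson correlation of log2 CPM over the 12744 genes that averaged 100 counts or more. With 7 libraries and so many genes, high correlations are common, and the libraries share depth and composition. For Malat1 they were Fam210b (r = 0.994, n = 7), Blvrb (0.981) and BC005561 (0.976). Blvrb, biliverdin reductase B, an enzyme abundant in red blood cells, had 257 and 246 CPM in embryos 1 and 4 and 20.3 to 59.6 CPM in the other embryos. For Gas5 they were the ribosomal protein gene Rpl7 (r = 0.996), the pseudogene Rps3a2 (0.996) and Psmd10 (0.991), and for Snhg1 Cox7c, a subunit of cytochrome oxidase (0.997), the ribosomal protein gene Rpl23a (0.995) and Commd2 (0.993). Rpl7 had 6715 CPM in embryo 6 and 5672 CPM in embryo 4, the same embryos that were highest for Gas5, and a log2 fold change of 2.40, and Rpl23a had one of 3.19, whereas Rps3a2 had one of −0.72, opposite to Gas5.

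For the others the most alike were C2cd4b (0.982), Stat5a (0.970) and Rab24 (0.957) for Neat1, Fam149a (0.994), Sorcs2 (0.990) and Lima1 (0.987) for Miat, Lrrn2 (0.969), Sema5b (0.961) and Gm13443 (0.956) for Snhg11, and 2010204K13Rik (0.985), Clec2d (0.967) and Dhrs3 (0.964) for Snhg12, all over n = 7 embryos. Likeness among embryos did not extend to the stage difference in each case, since Sema5b had a log2 fold change of 2.58 and Snhg11 one of −1.38. Among the 7 genes themselves, the highest correlations were 0.84 between Gas5 and Snhg1 and 0.78 between Malat1 and Neat1, and the lowest was −0.78 between Malat1 and Miat (n = 7 embryos each, given as description). Embryos 1 and 4 had the most Malat1 and Neat1 and the least Miat, so the correlations of Malat1 rest largely on these 2 embryos. For Neat1, embryo 1 (1.39 CPM, 19 read pairs) hardly differed from embryo 2 (1.32 CPM, 39 read pairs).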

How the data were processed

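RNA-seq libraries from 7 embryos and 2 adults were compared. Reads (75 bp pairs, from 50 ng of RNA) were trimmed with Trimmomatic 0.39 and aligned to mm10 with STAR 2.7.5b, per the submitters' processing notes and methods, and the authors deposited per gene the raw pair counts that STAR gives for Ensembl release 96 (GENCODE mouse release 21), which are not normalised. Column 4, the count on the transcript strand, was used. Columns 2 (unstranded) and 3 (opposite strand) served as an alternative and for read pairs at overlapping genes. Pairs on no feature made up 3.04% to 9.28% of uniquely mapped pairs and stayed out of library sizes and tests. Groups are those of the labels. Each library is described as 1 animal, so p-values rest on the spread between animals, largely that among the 7 embryos. The 2 adults were 1 male and 1 female, so their spread also holds any difference of sex, and the litters of the embryos are not given.

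Counts were normalised by TMM and tested with edgeR 4.0.16 (quasi-likelihood, stage as the only term, mean count of at least 5) in R 4.3.3, with Benjamini–Hochberg adjustment over all genes tested. The fit was tested on simulated data. Other values were computed in Python 3.11.15 (scipy 1.17.1, pandas 2.3.3, numpy 2.4.6), and plots drawn with matplotlib 3.10.9. Depth was 16738863 to 36421545 counted pairs, and Wilson intervals (95%) cover counting error only.

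The 7 genes and the gene lists were chosen with earlier results of these data known. Named genes were the 7, all tested hosts of the list of other snoRNA hosts, in the other lists up to 4 called genes with the largest fold changes and the 2 with the highest level per kilobase, up to 4 abundant genes of each tissue and cell type list, and the 3 genes most like each of the 7. Genes named outside this rule (Avp, Oxt, Lhb and Fshb, Scn7a, Sox2, Hba-x, Prrx1, Ptprc, Snap25 and those named for their start sites) were chosen after their values were seen. Older symbols were matched through RefSeq synonyms, and Snhg4 and Snhg7 were not matched.

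Alternatives were DESeq2 1.42.0, its size factors, library size alone, all uniquely mapped pairs as library size, edgeR's own filter, no filter, at least 10 counts in every sample, unstranded counts, the noFeature share as a covariate, a correction for length and GC content (fitted by splines, 4 degrees of freedom each, on genes averaging 50 counts or more), a replicate block, fold thresholds of 2 or none, and leaving out embryos 1 and 4 or each library in turn. The part of Malat1 that was read apart, and the libraries left out for it, were chosen after seeing the data.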

Additional observations from a re-analysis of the deposited data

Results flagged for a closer look

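Each of 34 measures (the 7 genes, the other hosts, shares of read pairs and marker sums) was checked among the 7 embryos for a library far from the rest, which chance alone finds in about 1 of 20 such checks, and 5 were found. The share of unmapped pairs was 10.3% in embryo 1 and 0.863% to 4.74% in the other embryos. Embryo 1 also had 0% of its 10 Miat pairs in the stretch that overlaps a gene on the other strand, where the other embryos had 16.2% to 26.2%, and 10 pairs are too few to tell these apart. The snoRNA host Snhg5 had 30.5 CPM in embryo 6, the embryo with the most Gas5, and 19.3 to 23.4 CPM in the others. Snhg14 had 9.80 CPM in embryo 4 and 1.70 to 5.20 CPM in the others, all below the adults. The 8 endothelial and immune genes summed to 619 CPM in embryo 2 and to 218 to 338 CPM in the others. Embryo 2 was the highest for Snhg12, and whether these go together was not tested.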

How the results depend on the processing

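Neat1 and Snhg1 kept their direction and passed under all 21 alternatives (Snhg1 not always above 4-fold), with log2 fold changes of −5.25 to −2.64 and 1.75 to 2.48. Malat1 kept its sign in 14 of 21 (−2.04 to 1.76), and the signs that turned, −0.34 with library size alone, −0.37 with all uniquely mapped pairs as library size, −0.78 with unstranded counts, −0.87, −0.07 and −0.07 without embryo 1, embryo 4 or adult 1, and −2.04 without embryos 1 and 4, did not pass except the last. The cause was not tested, apart from the unstranded counts, which leave out ambiguous pairs. Snhg11 passed with DESeq2 (−1.42, adjusted p = 0.0349), DESeq2 size factors (−1.42), library size alone (−1.56), edgeR's filter (−1.38), the noFeature covariate (−1.91) and without embryos 1 and 4 (−1.17), and has no value where every sample must hold 10 counts. The length and GC correction took Miat to −1.01 and Snhg12 to 0.29, and Snhg12 also did not pass with library size alone (0.67), all uniquely mapped pairs (0.68) or no filter (0.92, adjusted p = 0.0510). The length and GC correction left 3 of the 7 genes passing, 2 higher in the embryo and 1 higher in the adult. Of all tested genes, 24.8% and 23.7% did so under that correction.

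When each library was left out in turn, log2 fold changes ran from −0.87 to 0.34 for Malat1, −5.13 to −4.88 for Neat1, −2.56 to −1.97 for Miat, −1.49 to −1.21 for Snhg11, 1.08 to 1.41 for Gas5, 1.78 to 2.32 for Snhg1 and 0.69 to 1.16 for Snhg12, and 2 to 5 of the 7 genes passed, with 2 without adult 1 and 3 without adult 2, where the lone adult is assumed to vary like the embryos. Numbers passing then ran from 2 to 9 for other hosts, 3 to 10 for paraspeckle proteins, 6 to 13 for speckle proteins and 5 to 9 for nonsense-mediated decay, lowest without an adult in each. The difference in the Malat1 window share, 33.1 points, was 31.5 to 36.8 points with any 1 library left out and 30 points without embryos 1 and 4, settings chosen after seeing the data.

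Of all genes, 5001 were called (3683 to 5290 with a library left out), 2642 if every sample had to hold 10 counts, 8960 with a fold above 2 and 9948 with no fold threshold. Scaling by library size alone moved the median log2 fold change of all genes from −0.04 to −0.26, all uniquely mapped pairs to −0.24, the noFeature covariate to −0.21 and the block to −0.25. Replicate numbers only name the animals (correlations of same-numbered pairs 0.044 and −0.013), and a replicate block on libraries 1 and 2 of each stage called 4151 genes and let 5 of the 7 genes pass. The relation to the noFeature share had no value to recompute, so its alternatives were not run.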

Other observations

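Summed levels of genes known from tissue around the pouch also differed between samples. Summed over 7 mesenchymal genes, of which Col3a1 was the most abundant, the level was 593 to 2211 CPM in the embryos and 586 and 383 CPM in the adults. It was lowest in embryo 3 and highest in embryo 7, and embryos 1 and 4 had 1591 and 947 CPM. Of the mesenchymal genes, 5 passed higher in the embryo and 1, Prrx1, higher in the adult (log2 fold change −2.82). Over 8 endothelial and immune genes the sums were 218 to 619 CPM in the embryos and 174 and 171 CPM in the adults. Of these, 4 passed higher in the embryo and 1, Ptprc, higher in the adult (log2 fold change −2.91). Of all tested genes, 24.0% and 27.4% passed higher in the embryo and the adult. The part of these tissues in the results was not tested.

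Sox2 itself had 37.3 ± 6.20 CPM (SD, n = 7) in the embryos, which carry the Egfp allele, and 60.4 ± 5.11 CPM (SD, n = 2) in the adults (log2 fold change −0.70, adjusted p = 0.0282), a difference that did not pass without embryos 1 and 4. Stage and allele cannot be told apart here.

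The 2 adults limit every comparison, and their variance rests largely on that of the embryos. Snhg11 had 8 to 39 read pairs in an embryo and Neat1 15 to 39, so their levels there are coarse. Poly(A) selection is not suited to measuring snoRNAs and may miss RNAs without a poly(A) tail. Counts per gene do not separate isoforms, spliced from unspliced RNA, or nucleus from cytoplasm. Embryos 1 and 4 differ from the others in several measures at the same time, and the labels do not give the sex of single animals.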
